A study of Mus musculus with 19 samples.

Results

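L1Md_A is a young subfamily of mouse LINE-1 (L1) retrotransposons, and the regions described here are the SPEN ChIP-seq peaks that lie on L1Md_A copies. A peak was a member when the deposited annotation on mm10 gave L1Md_A as its repeat name and the peak lay on chr1 to chr19. Of 63839 peaks on these chromosomes in the 19 deposited peak lists, 3082 were L1Md_A peaks. L1Md_T had 4979 peaks by the same rule. The related repeat names L1Md_F, L1Md_F2, L1Md_F3 and L1Md_Gf together had 2421. They are pooled throughout and called the L1Md_F and L1Md_Gf subfamilies. The 3082 peaks merged into 2196 loci, since one genomic position could be called in several lists.

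The cells came from testes of adult FVB/N male mice aged 10 to 16 weeks. Mixed testicular cells were precipitated with an antibody to the N-terminal part of SPEN (3 libraries: untreated, 38 °C for 15 min, and 38 °C for 30 min with 2 h of recovery) or with an antibody to an internal part (9 libraries). The internal antibody series held untreated cells, 38 °C for 15 or 30 min, 38 °C for 30 min with 2 or 4 h of recovery, 43 °C for 15 or 30 min, and 43 °C for 30 min with 2 or 4 h of recovery. A population enriched in spermatocytes to at most 80% was precipitated with the internal antibody in 4 libraries: untreated, 43 °C for 30 min, and the same heating with 2 or 4 h of recovery. Untreated suspensions stayed at 32 °C, which is physiological for testes, and heated ones returned to it for recovery. The 3 background libraries were testicular rabbit IgG, testicular input DNA and spermatocyte input DNA, and the labels call each a mix. Each library pooled 5 to 6 precipitations and each condition had 1 library, so no condition has a replicate. In the file headers, the folder names set the 3 N-terminal lists apart from all others, so antibody and that folder cannot be told apart.

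SPEN is a large RNA-binding repressor protein that recruits histone deacetylase complexes through its C-terminal domain and is best known for silencing genes on the inactive X chromosome. LINE-1 elements copy themselves through an RNA intermediate. In mouse subfamilies such as L1Md_A, L1Md_T and L1Md_Gf the 5′ end is built of tandem monomers that act as the promoter, and most copies in the genome have lost that end by truncation. Male germ cells hold these elements down with DNA methylation, repressive histone marks and PIWI-interacting RNAs.

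Only 2 of the 32851 promoter windows in RefSeq (GRCm38.p6, 250 bases before to 50 after a gene start) shared a base with an L1Md_A peak, and they are shown because they are the L1Md_A peak sequences at hand. No genome was used here, so the sequences of the other peaks are not shown. Capitals mark the longest stretch that occurs a second time, letter for letter, within the same window.
A230004M16Rik: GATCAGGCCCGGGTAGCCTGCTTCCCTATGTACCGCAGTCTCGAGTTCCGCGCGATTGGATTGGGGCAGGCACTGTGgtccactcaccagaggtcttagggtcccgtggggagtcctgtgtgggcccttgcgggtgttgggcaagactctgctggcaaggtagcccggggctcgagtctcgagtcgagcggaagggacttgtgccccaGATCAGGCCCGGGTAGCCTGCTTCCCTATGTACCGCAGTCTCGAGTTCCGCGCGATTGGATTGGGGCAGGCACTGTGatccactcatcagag
Gm36816: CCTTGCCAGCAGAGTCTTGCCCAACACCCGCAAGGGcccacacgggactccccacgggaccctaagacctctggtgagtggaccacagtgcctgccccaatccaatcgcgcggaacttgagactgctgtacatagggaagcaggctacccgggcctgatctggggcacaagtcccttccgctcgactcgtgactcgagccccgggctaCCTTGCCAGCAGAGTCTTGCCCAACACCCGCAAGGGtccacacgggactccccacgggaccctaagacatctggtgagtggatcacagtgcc
The A230004M16Rik window (chr11:41710094-41710393, plus strand) lay wholly inside an intergenic L1Md_A peak at chr11:41710089-41710433 with a peak score of 110.84. The Gm36816 window (chr6:67008938-67009237, minus strand) shared 225 bases with an L1Md_A peak at chr6:67009013-67009405, annotated as intronic, with a score of 60.72. Both peaks were called only in the untreated testicular list of the internal antibody, and neither shared a base with a background peak. In both windows the capital stretch came back 208 bases further on. It was 77 bases long in the first window and 36 in the second, and over the 92 bases that could be compared 97.8% and 96.7% were the same 1 period on. Aligned on opposite strands, the windows matched in 223 of 232 positions (96.1%), without a gap. Their GC content was 62.7% and 63.0%, against a median of 52.7% over all promoter windows, and they held 19 and 15 CpG dinucleotides, against a median of 7. A word of 20 letters found in both windows, on either strand, occurred in 7 windows (0.0213% of all). Besides these 2, the windows of Slc24a3 and Tc2n lay under peaks of the same untreated list with no repeat name (scores of 53.28 and 51.69). The windows of Gm46483 and the pair of Gm31630 windows had no peak in any list.

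L1Md_A peaks were a small share of each list, and the 2 lists with the largest share were also the 2 longest. L1Md_A made up 6.68% (1818 of 27197 peaks) of the untreated testicular list of the internal antibody, with a 95% Clopper-Pearson interval of 6.39 to 6.99%. It made up 5.79% (527 of 9101, 5.32 to 6.29%) of the spermatocyte list after 43 °C for 30 min and 4 h of recovery. Of all L1Md_A peaks in the 16 SPEN lists that shared no base with a background peak, 90.5% came from these 2 lists. They also held most such peaks of any kind: 25732 and 7748, against 297 to 1072 in each other SPEN list. The 90.5% is therefore not read as particular to L1Md_A. Read depth is unknown for every list, so the peak numbers of the lists are given side by side and not compared. The intervals cover counting error only.

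**Figure D1:**
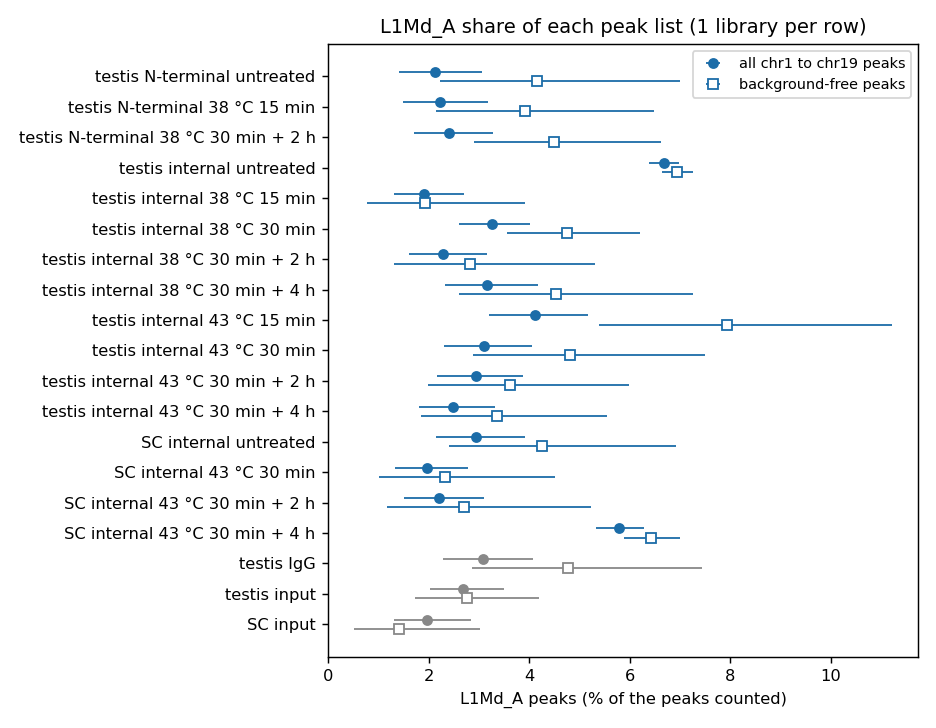
L1Md_A peaks as a percentage of the peaks of each list, for all chr1 to chr19 peaks (filled circles) and for background-free peaks (open squares), with 95% Clopper-Pearson intervals. Blue marks the 16 SPEN lists and grey the 3 background lists; SC stands for spermatocytes. The untreated testicular list of the internal antibody (6.68%) and the spermatocyte list at 4 h (5.79%) stand to the right of the other filled circles.

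The shorter SPEN lists held 27 to 82 L1Md_A peaks each. With the N-terminal antibody the share was 2.12% in untreated cells (27 of 1275), 2.23% at 38 °C for 15 min (29 of 1301) and 2.40% after 2 h of recovery (39 of 1622). The 3 values lay within each other's intervals. With the internal antibody at 38 °C it was 1.91% at 15 min (31 of 1623), 3.25% at 30 min (82 of 2521), 2.29% after 2 h of recovery (36 of 1572) and 3.16% after 4 h (47 of 1489). At 43 °C it was 4.11% at 15 min (68 of 1656), 3.09% at 30 min (51 of 1648), 2.94% after 2 h (48 of 1635) and 2.49% after 4 h (44 of 1770). The 43 °C series thus ran from its highest value at 15 min to its lowest at 4 h of recovery, with 1 library at each point and overlapping intervals between neighbours. In spermatocytes the share was 2.94% untreated (45 of 1529), 1.96% at 43 °C (30 of 1533) and 2.21% after 2 h of recovery (32 of 1450).

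The background lists held L1Md_A peaks at similar shares, 3.08% in IgG (47 of 1524), 2.69% in the testicular input (53 of 1971) and 1.97% in the spermatocyte input (28 of 1422). The mean share was 3.10% over the 16 SPEN lists and 2.58% over the 3 background lists. The difference of 0.52 percentage points did not pass an exact two-sided permutation test over libraries (p = 0.652, adjusted over the 9 tests of the report 0.734). Without the 2 long lists the SPEN mean was 2.65% and the difference 0.069, and without the spermatocyte input the difference was 0.211. Testicular and spermatocyte cells at the same 4 treatments had mean shares of 3.80% and 3.22%, a difference of 0.58 percentage points (SD 2.91, n = 4 pairs, exact sign-flip p = 0.625, smallest possible 0.125). The N-terminal and internal antibodies at the same 3 treatments had mean shares of 2.25% and 3.63%, a difference of -1.38 (SD 2.76, n = 3 pairs, exact sign-flip p = 1.0, smallest possible 0.25). Neither of these designs can reach 0.05, and the long lists enter them. Without the untreated pair, which holds the longest list, the antibody difference was 0.217 and the population difference -0.479, both of the opposite sign. The population pair after 4 h of recovery then still held the other long list (-3.30). The population pairs without a long list differed by 1.14 (43 °C for 30 min) and 0.729 (after 2 h of recovery).

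A peak is called background-free here when it shares no base with any peak of the 3 background lists; a peak of a background list is set against the other 2. In the untreated testicular list of the internal antibody 1788 of 1818 L1Md_A peaks were background-free (98.3%), against 94.6% of all its peaks. In the spermatocyte list at 4 h 498 of 527 were (94.5%), against 85.1% of all peaks. The N-terminal lists had 13, 14 and 24 background-free L1Md_A peaks, which is 48.1, 48.3 and 61.5% of their L1Md_A peaks, against 24.5, 27.5 and 32.9% of all peaks. In these 3 lists the L1Md_A share lay above that of all peaks.

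With the internal antibody at 38 °C, 7 of 31 L1Md_A peaks were background-free at 15 min (22.6%, against 22.5% of all peaks) and 51 of 82 at 30 min (62.2%, against 42.5%). After recovery at 2 and 4 h the counts were 9 of 36 (25.0%, against 20.2%) and 16 of 47 (34.0%, against 23.7%). At 43 °C the counts were 29 of 68 at 15 min (42.6%, against 22.0%) and 18 of 51 at 30 min (35.3%, against 22.7%). After recovery they were 14 of 48 at 2 h (29.2%, against 23.7%) and 14 of 44 at 4 h (31.8%, against 23.6%). The 15 min list at 38 °C stood at the level of all its peaks, and the lists of 30 min at 38 °C and 15 min at 43 °C stood farthest above it. In spermatocytes the counts were 15 of 45 untreated (33.3%, against 23.0%), 8 of 30 at 43 °C (26.7%, against 22.5%) and 8 of 32 after 2 h of recovery (25.0%, against 20.5%). The shorter lists together had 609 L1Md_A peaks, of which 240 were background-free (39.4%) and 369 lay on background peaks.

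Counted among background-free peaks alone, L1Md_A made up 6.95% of the untreated testicular list of the internal antibody (95% interval 6.64 to 7.27%) and 6.43% of the spermatocyte list at 4 h. The highest share was in the testicular list at 43 °C for 15 min, 7.95%, or 29 of 365 peaks (5.39 to 11.2%). The others ran from 1.92% at 38 °C for 15 min to 4.81% at 43 °C for 30 min, and the IgG list had 4.77%. The short lists therefore rest on 7 to 51 peaks each, and the intervals of all 14 overlap that of IgG (2.85 to 7.44%). The testicular input had 2.77% (1.72 to 4.20%) and the spermatocyte input 1.40% (0.516 to 3.03%). The interval at 43 °C for 15 min overlaps neither, and that at 38 °C for 30 min (3.56 to 6.21%) only the testicular one. The intervals cover counting error only, and these shares were not tested.

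Within a list, L1Md_A peaks were more often background-free than the other peaks in 16 of 16 SPEN lists. The mean was 44.9% for L1Md_A and 32.9% for the others, a difference of 12.04 percentage points (SD 8.67, n = 16 lists, sign-flip permutation p = 3.05e-05, the smallest the permutations can give, adjusted 0.000137). All 16 lists were set against the same 3 background lists and share L1Md_A positions, so they are not independent. The call was lost among strong peaks: the difference was 7.52 (adjusted permutation p = 0.0507) in the 1000 highest scoring peaks of each list and 4.39 (adjusted 0.185) among peaks with a score of at least 100. A background list set against the others gave 38.3% for L1Md_A and 24.3% for other peaks in IgG, 39.6% and 38.5% in the testicular input, and 21.4% and 30.3% in the spermatocyte input. Over all peaks these lists had 24.7, 38.5 and 30.1% background-free.

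**Figure D2:**
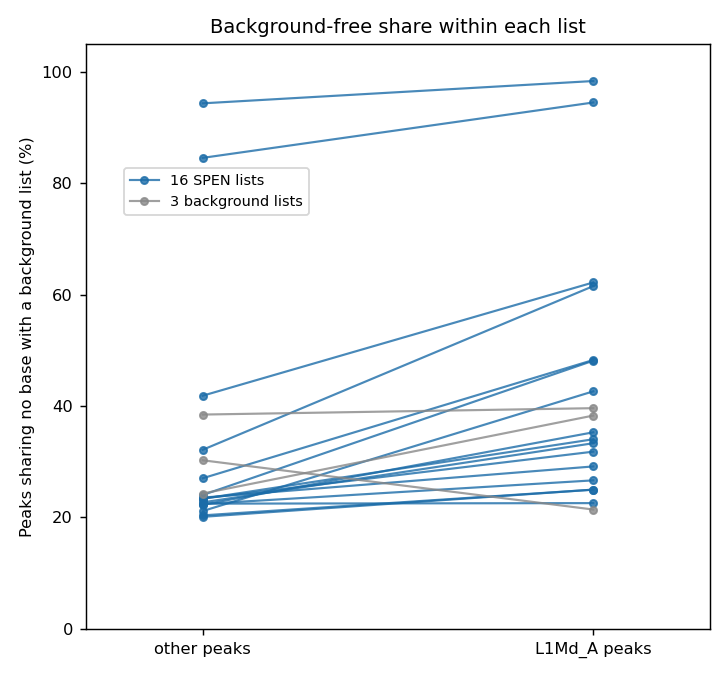
Percentage of peaks that share no base with a background list, for other peaks and for L1Md_A peaks of the same list, joined by a line. Each blue line is 1 of 16 SPEN lists and each grey line 1 of 3 background lists; all blue lines rise to the right (mean 32.9% to 44.9%), while that of the spermatocyte input falls from 30.3% to 21.4%.

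Against its sister subfamilies the L1Md_A share was not higher. L1Md_T peaks were background-free in 49.1% on average, 4.22 percentage points more than L1Md_A (difference -4.22, SD 6.48, n = 16 lists, sign-flip permutation p = 0.0219, adjusted 0.0493), with L1Md_A below in 12 of 16 lists. This call was lost in 11 of the 16 fits that left out 1 list each. The L1Md_F and L1Md_Gf peaks had a mean of 49.5%, with L1Md_A below in 10 of 16 lists (difference -4.62, SD 7.81, n = 16, sign-flip permutation p = 0.0338, adjusted 0.0507).

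The peak score is the authors' own value and runs from 50 upwards. L1Md_A peaks reached 557.81 in the untreated testicular list of the internal antibody, 469.31 in the spermatocyte list at 4 h and 217.05 to 403.91 in the other lists. In all 19 lists the highest L1Md_A score belonged to a peak at background. Among the background-free ones, the highest scores in these lists were 366.51 and 336.31. In the N-terminal lists they were 229.01, 173.57 and 154.77, and in the other 11 SPEN lists between 65.63 and 113.63. The median score of background-free L1Md_A peaks was 69.89 in the untreated testicular list of the internal antibody and 61.04 in the spermatocyte list at 4 h, and 50.95 to 70.97 in the rest. L1Md_A peaks at background had medians of 84.01 to 130.78 in the 16 SPEN lists, above the background-free median of the same list in each.

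The median score rank of L1Md_A peaks within a list (0 lowest, 100 highest) was 44.9 on average, against 50.1 for the other peaks, and below theirs in 10 of 16 lists (difference -5.23, SD 8.67, n = 16, sign-flip permutation p = 0.0298, adjusted 0.0507). The rank was highest in the untreated testicular list of the internal antibody, 60.8, and lowest at 43 °C for 15 min, 33.7. Among peaks with a score of at least 100 the difference was -11.5 (adjusted permutation p = 0.000206).

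In the 2 long lists the share of L1Md_A among background-free peaks varied with the score. In the untreated testicular list it was 5.03% at scores of 50 to 60 (571 of 11341), 6.76% at 60 to 80, 9.11% at 80 to 100 and 12.3% at 100 to 150 (319 of 2592, 11.1 to 13.6%). It was 10.4% at 150 to 200 and 7.50% above 200 (38 of 507, 5.36 to 10.1%). In the spermatocyte list at 4 h it was 5.66%, 6.65%, 9.84%, 7.92%, 6.15% and 2.50% in the same bands, the last being 2 of 80 peaks. The L1Md_A share was thus highest in a middle band in both lists. L1Md_T went higher, to 29.2% at 150 to 200 and 23.9% above 200 in the untreated testicular list, and to 16.3% at 100 to 150 in the spermatocyte list.

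**Figure D3:**
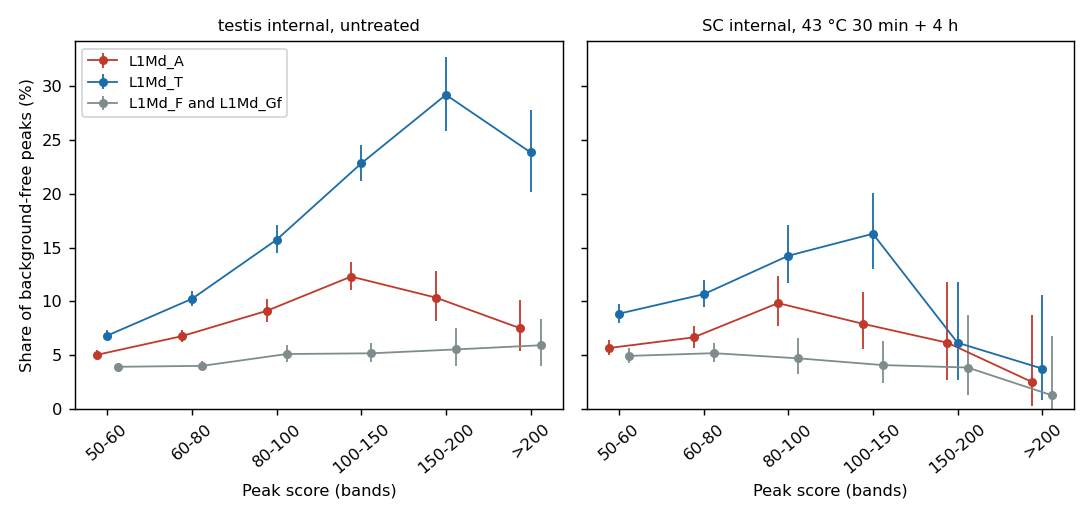
Share of background-free chr1 to chr19 peaks that lie on L1Md_A, L1Md_T or the L1Md_F and L1Md_Gf subfamilies, by band of peak score, in the 2 long lists, with 95% Clopper-Pearson intervals. L1Md_A (red) peaks at 12.3% in the 100 to 150 band on the left and at 9.84% in the 80 to 100 band on the right, below L1Md_T (blue) in the same bands.

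L1Md_A peaks were narrow. Their median width was 140 to 201 bp in the 16 SPEN lists, with a mean of 166.7 bp, against 213.2 bp for the other peaks (difference -46.5 bp, SD 21.9, n = 16 lists, sign-flip permutation p = 6.1e-05, adjusted 0.000183). They were narrower in 15 of 16 lists, the exception being the untreated testicular list of the internal antibody, with 201 against 197 bp. The lists share L1Md_A positions, so they are not independent and the p-value above may be too small. The N-terminal lists had medians of 201, 192 and 194 bp against 265.5, 251.5 and 279 bp. The spermatocyte list at 4 h had 178 against 185 bp. The background lists showed the same order, 157 against 190 bp in IgG, 157 against 211 bp in the testicular input and 176.5 against 234 bp in the spermatocyte input.

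All 3082 L1Md_A peaks were intronic or intergenic. The annotation gives no repeat name to any of the 6092 peaks at promoters, exons and other places, so an L1Md_A copy there cannot appear as a member. In the untreated testicular list of the internal antibody 381 L1Md_A peaks were intronic and 1437 intergenic, and in the spermatocyte list at 4 h 109 and 418. The intronic share was 21.0% and 20.7% there and 6.25 to 20.7% in the shorter SPEN lists. Of intronic and intergenic peaks, a mean of 14.5% of the L1Md_A ones were intronic against 31.4% of the others (difference -16.85, SD 5.28, n = 16 lists, sign-flip permutation p = 3.05e-05, the smallest the permutations can give, adjusted 0.000137). The share was lower in 16 of 16 SPEN lists. These lists partly hold the same positions: 25 loci at background were in at least 10 lists. The 6 loci called in all 19 lists were intergenic. The lists are thus not independent, and the p-value may be too small. L1Md_T had a mean intronic share of 26.0% and the L1Md_F and L1Md_Gf subfamilies one of 26.4%, with L1Md_A below them in 16 and 13 of 16 lists. In the 2 long lists, which hold most of the peaks, the subfamilies lay closer together: L1Md_T had 23.7% and 22.9% and L1Md_F and L1Md_Gf 17.3% and 19.9%. These differences between subfamilies were not tested. The L1Md_A share was 25.5, 11.3 and 7.14% against 31.6, 30.7 and 29.4% in the 3 background lists.

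L1Md_A peaks lay far from gene starts. The median distance to the nearest annotated start was 127135 bp in the untreated testicular list of the internal antibody and 137747 bp in the spermatocyte list at 4 h, and 112618.5 to 312572.5 bp across the 16 SPEN lists. For other intronic and intergenic peaks these medians were 44305 to 52532 bp, so the ranges did not overlap. They did not overlap in the background lists either, with 203216 to 241709.5 bp against 48408 to 54221.5 bp. In the untreated testicular list 21 L1Md_A peaks (1.16%) lay within 5000 bp of a start.

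The L1Md_A share also differed between chromosomes. In the untreated testicular list of the internal antibody it was highest on chr16 (94 of 961 peaks, 9.78%) and chr3 (165 of 1728, 9.55%) and lowest on chr11 (50 of 1130, 4.42%). In the spermatocyte list at 4 h chr16 (28 of 279, 10.0%) and chr3 (39 of 428, 9.11%) again led, and chr12 was lowest (15 of 451, 3.33%). The length of L1Md_A copies per chromosome was not used here.

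Many L1Md_A peaks came in close pairs and short runs. In the untreated testicular list of the internal antibody 643 of 1788 background-free L1Md_A peaks (36.0%) had a neighbouring L1Md_A peak with a midpoint under 2000 bp away. They formed 241 pairs and 52 runs of 3 or more, the longest with 5 peaks. The 350 gaps had a median of 363.25 bp (quartiles 288.6 and 522.4), 186 of them were 200 to 399 bp, and only 18 gaps fell from 2000 up to 8000 bp. In the spermatocyte list at 4 h 57 of 498 peaks (11.4%) were grouped, with a median gap of 355.75 bp over 30 gaps. L1Md_T was grouped in 42.6% and 13.0% of its peaks in the 2 lists, with median gaps of 363.0 and 368.5 bp, and the L1Md_F and L1Md_Gf subfamilies in 15.4% and 4.23%. Whether neighbours lie on the same L1 element was not tested, and such peaks are not independent.

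**Figure D4:**
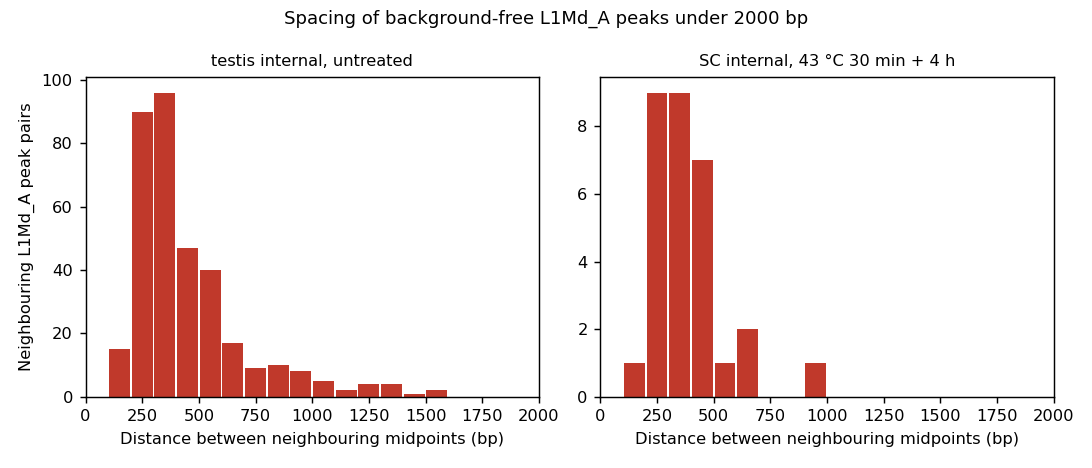
Distances under 2000 bp between the midpoints of neighbouring background-free L1Md_A peaks in the 2 long lists, in bins of 100 bp; bars count neighbouring pairs. Most distances lie between 200 and 600 bp, with medians of 363.25 bp (left, 350 gaps) and 355.75 bp (right, 30 gaps).

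The 2 long lists shared the largest number of background-free L1Md_A peaks among all pairs of SPEN lists, and they are also the longest lists. Of 1788 background-free L1Md_A peaks in the untreated testicular list of the internal antibody, 273 (15.3%, 13.6 to 17.0%) shared a base with a peak of the spermatocyte list at 4 h, against 10.5% of all background-free peaks and 16.8% of those on L1Md_T. In the other direction 271 of 498 (54.4%, 49.9 to 58.9%) were found again, against 34.9% of all and 61.9% on L1Md_T. As a share, a shorter list reached the same level. The list at 38 °C for 30 min had 28 of its 51 peaks (54.9%) in the untreated testicular list, against 55.2% of all its background-free peaks. No test of these shares was made, since each is 1 pair of libraries.

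L1Md_A peaks called with both antibodies at the same treatment were few in number, and as a share they are set beside all background-free peaks. In untreated cells 6 of 13 N-terminal peaks were also in the internal list, against 46.6% of all background-free N-terminal peaks. At 38 °C for 15 min it was 1 of 14, against 14.8% of all, and after 2 h of recovery 2 of 24, against 7.88%. In the other direction 6 of 1788, 1 of 7 and 2 of 9 internal peaks were found with the N-terminal antibody, against 0.598, 14.5 and 14.2% of all. The 2 cell populations were compared in the same way. Of the spermatocyte peaks, 6 of 15 in untreated cells, 0 of 8 at 43 °C, 1 of 8 after 2 h and 1 of 498 after 4 h overlapped a testicular peak after the same treatment, against 31.0, 8.99, 11.4 and 0.865% of all. Of the testicular peaks, 6 of 1788, 0 of 18, 1 of 14 and 1 of 14 were found in spermatocytes, against 0.396, 8.82, 8.51 and 17.5% of all. The counts of 0 among 8 and 18 peaks allow shares of up to 36.9% and 18.5% (95% Clopper-Pearson upper bounds).

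Of the 2196 L1Md_A loci, 62 held a peak that touched background and 2134 did not, and 2115 of the latter had a peak in a SPEN list. Most were called once: 1794 were in a single SPEN list, of which 1490 were in the untreated testicular list of the internal antibody and 220 in the spermatocyte list at 4 h. Another 278 were in 2 SPEN lists, and 238 of these were in the 2 long lists alone. Only 43 loci (2.03%, 1.48 to 2.73%) were in 3 or more SPEN lists, against 2.98% of background-free loci of any kind. No test was made of that difference. Of the 43, 30 were held by the untreated testicular list of the internal antibody and 12 by neither long list, 9 were intronic, 13 were called with both antibodies and 32 in both cell populations. The count rests on the long lists: it was 26 without the untreated testicular list of the internal antibody and 27 without the spermatocyte list at 4 h. The counts in 1 or 2 lists and the make-up of the 43 were not worked out for loci of any kind. They are therefore not read as particular to L1Md_A.

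The locus in most SPEN lists, 7, lay at chr3:11120819-11121045 in an intergenic stretch whose nearest gene start is Snx16, a sorting nexin of endosomal trafficking. Its scores were all under 80, namely 70.87 in untreated testicular cells, 59.53 at 38 °C for 15 min, 51.37 after 38 °C and 2 h, 62.07 at 43 °C for 15 min and 56.86 after 43 °C and 4 h, all with the internal antibody. In spermatocytes they were 61.5 untreated and 78.95 at 4 h of recovery. No N-terminal list held it, and both populations had it untreated and again after 43 °C and 4 h.

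The intergenic locus nearest to 4930548G14Rik, at chr15:47233285-47233618, held the top background-free L1Md_A peak of all 3 N-terminal lists. Its N-terminal scores were 229.01 untreated, 173.57 at 38 °C for 15 min and 154.77 after 2 h of recovery. With the internal antibody it scored 144.43 in untreated testicular cells, 52.68 after 38 °C and 2 h and 59.81 in spermatocytes at 4 h. Its score was thus higher in each N-terminal list than in any internal one. Depth and the score formula are unknown, so this is not read as a difference between the antibodies. A locus in an intron of Fbxl4, a mitochondrial F-box protein gene, at chr4:22372597-22372903, was also in all 3 N-terminal lists (82.59, 99.39 and 101.31, in the same order). It was in neither long list, and scored 65.59 after 38 °C and 4 h and 60.16 at 43 °C for 15 min with the internal antibody.

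The strongest background-free L1Md_A peak of both long lists was in an intron of Gm21119, at chr8:20627280-20627866, with 366.51 in untreated testicular cells and 336.31 in spermatocytes at 4 h. It scored 66.01 and 60.37 in the N-terminal lists at 38 °C for 15 min and after 2 h, and 50.9 in the internal list at 38 °C for 15 min. A run of recurrent loci lay on chr14, which held 8 of the 43, with 6 of them between 41 and 44 Mb near Gm10377 and 1700091H14Rik. One of them, at chr14:42812011-42812534, scored 322.19 in untreated testicular cells, 76.24 in spermatocytes at 4 h, 61.96 at 38 °C for 30 min and 78.91 with the N-terminal antibody at 38 °C for 15 min. The interval from 41 to 44 Mb held 14 background-free L1Md_A peaks of the untreated testicular list and 13 of the spermatocyte list at 4 h. Background-free peaks of any kind were not counted there, so these numbers are not read as particular to L1Md_A. The other named recurrent loci were intergenic as well. The one nearest to 1700003I22Rik, at chr1:56143202-56143482, was in 6 lists at scores of 51.13 to 80.99, highest in the longest list. The one nearest to Api5, which encodes an apoptosis inhibitor, at chr2:95260231-95260881, was in 5 lists and scored 298.07 in untreated testicular cells, 157.78 in spermatocytes at 4 h and 55.68 to 87.12 elsewhere. The one nearest to Sult1c1, a sulfotransferase gene, at chr17:53937434-53937698, was in 5 internal antibody lists of testicular cells. It scored 57.86 untreated, 92.26 and 67.02 after 38 °C for 30 min without recovery and with 4 h, and 79.0 and 72.52 at 43 °C for 15 min and after 2 h of recovery. Here the untreated score was the lowest of the 5. How uniquely reads map to these copies is not given in the sources used here.

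**Figure D5:**
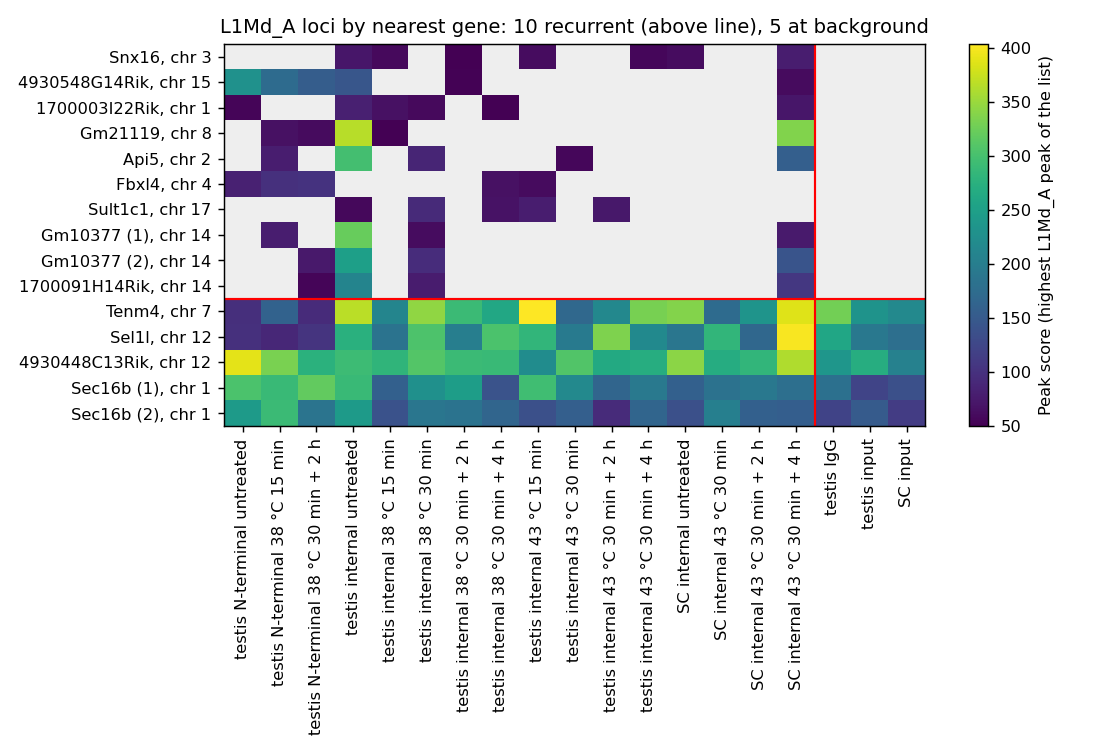
Peak scores at 10 recurrent background-free L1Md_A loci (above the red line) and 5 L1Md_A loci at background (below it), named by the nearest gene; columns are lists, with the 3 background lists right of the red line, and light grey marks no L1Md_A peak. The recurrent loci fill 4 to 7 SPEN columns and no background column, whereas the loci near Tenm4, Sel1l, 4930448C13Rik and Sec16b fill every column.

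At 8 background-free loci both antibodies had a peak at the same treatment, and at 1 of them in 2 treatments, the 4930548G14Rik locus. The others include a locus near Lrif1, which encodes a partner of heterochromatin proteins, at chr3:106672747-106673036, with scores of 66.63 and 62.83 in the untreated and 2 h N-terminal lists, and, with the internal antibody, 169.05 in untreated cells and 55.69 at 43 °C for 15 min. A locus in an intron of Frmd4a at chr2:4342722-4342936 scored 64.76 with the N-terminal antibody and 111.58 with the internal one in untreated cells. The 2 populations shared 7 such loci. Those near Tmprss15, Crbn and Usp24 and in an intron of Apba2 scored 51.89, 67.57, 57.61 and 53.86 in untreated spermatocytes and 184.61, 152.4, 141.26 and 159.69 in untreated testicular cells. Tmprss15, Crbn and Usp24 are only the nearest genes, with the loci at -1016354, -224617 and -138919 bp relative to their starts. Shared loci of any kind were not counted in this way, so the 8 and the 7 are not read as particular to L1Md_A.

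Some L1Md_A positions were called in every list, background included. At 6 loci all 19 lists had a peak, and 25 loci at background were in at least 10 lists. The 6 are named by the nearest gene only, whose start lay 73322 to 1591829 bp away. The locus near Tenm4 at chr7:94842186-94842499 had scores of 93.54 to 403.91 in the 16 SPEN lists and 217.05 to 328.08 in the 3 background lists. The one near 4930448C13Rik at chr12:15253506-15253769 had 221.55 to 388.71 and 206.02 to 271.14. The other 4, near Sel1l, Rprl2 and, at a pair of positions, Sec16b, ranged from 79.95 to 400.09 in SPEN lists and from 81.75 to 259.26 in background lists. The SPEN and background ranges overlapped at each of the 6. These loci gave 84 of the 609 L1Md_A peaks of the 14 shorter SPEN lists. The 6, the 25 and the 84 have no counterpart here for peaks of any kind. They are therefore not read as particular to L1Md_A.

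The intronic background-free loci of the SPEN lists numbered 436, of which 430 could be matched to a host gene in RefSeq (GRCm38.p6 names). They fell in 257 host genes, 154 with 1 locus and 46 with 3 or more, and 186 of the hosts were longer than 100 kb. Fgf12, a fibroblast growth factor homologue that acts on sodium channels, and Itgbl1, an integrin beta-like protein, held 7 loci each, with highest scores of 157.72 and 142.85. The genes with 5 loci were Galnt13, a glycosyltransferase, Cntnap2, a neuronal cell adhesion protein, and the non-coding 4932412D23Rik and 4930474G06Rik. Ptprd, Lingo2, Stpg2 and Pcdh9 were among those with 4, and the Ptprd loci reached a score of 251.24. The hosts named here run from 150.1 kb (4932412D23Rik) to 2270.5 kb (Ptprd), and the number of loci was not corrected for gene length. Host genes of intronic background-free loci of any kind were not counted. The host numbers and lengths are therefore not read as particular to L1Md_A.

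A few genes of the pathways around L1 and SPEN were the nearest gene of a background-free L1Md_A peak. Over all genes with a background-free peak 10.3% had one on L1Md_A (1188 of 11585), and over the 5 gene lists 4 of 79 did; the counts are too small to set a list apart from all genes, and no test was made. Of 37 genes that silence L1, 18 had a background-free peak of any kind and 1 had one on L1Md_A: Morc1, a germ-cell ATPase needed to repress transposons in the male germline, with an intronic peak of score 56.27. Of 28 genes of SPEN corepressor complexes and Notch signalling, 17 and 2 did. They were the Notch ligand Jag1, with scores of 66.67 and 56.17, and Tbl1xr1, a subunit of the NCoR and SMRT corepressors, with 53.37 and 80.22, all far upstream of the gene start. The Tbl1xr1 peak of 80.22 overlapped one of 52.43 in spermatocytes at 4 h. Of 32 heat shock genes 17 and 1 did, with peaks of 125.91 and 58.48 assigned to Hspa13, a member of the HSP70 family. Of 38 genes of meiotic prophase, 18 had a background-free peak and 0 an L1Md_A one, and of 20 somatic cell genes 9 and 0. All of these L1Md_A peaks but the one in spermatocytes came from the untreated testicular list of the internal antibody.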

How the data were processed

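SPEN ChIP-seq peaks were analysed in 19 mouse testis libraries, 16 with SPEN antibodies and 3 background, with 1 library per condition. Bowtie2, SAMtools, HOMER and mm10 are listed in the submitters' processing notes. The peaks are named MACS peaks, per the file headers. For versions, thresholds, the caller's control and multiply mapping reads, nothing is given in the sources used here. The score of a peak is the authors' deposited value; its formula is not stated, and no list has a score under 50. Depth is unknown, since the files hold no reads.

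Repeat names, intronic or intergenic place, nearest gene and distance to its start were taken from the deposited annotation. Peaks overlapped when they shared at least 1 bp; L1Md_A peaks that did were merged into loci. Libraries were compared with two-sided exact or sign-flip permutation tests (SciPy 1.17.1, Python 3.11.15), adjusted by Benjamini-Hochberg over 9 tests, with 0.05 as threshold. Code was tested on simulated peaks. The loci and genes named were the loci in the most SPEN lists, the top peaks of each list, loci shared by antibodies or populations, the loci at background in the most lists, list members, and the hosts with the most intronic loci. The members and lists were chosen with earlier results of these data known. Score bands, spacing, intronic shares of sister subfamilies, start distances against intronic and intergenic peaks, the chr14 interval and the promoter windows were chosen after the values were seen. Alternatives changed 1 choice at a time. L1Md_A peaks off chr1 to chr19 enter no comparison.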

Additional observations from a re-analysis of the deposited data

Results flagged for a closer look

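Against untreated testicular cells, the L1Md_A share of peaks after 38 °C differed in sign between the 2 antibodies. With the N-terminal antibody it was higher by 0.11 percentage points at 38 °C for 15 min and by 0.29 after 38 °C for 30 min and 2 h of recovery. With the internal antibody the differences were -4.77 and -4.39 percentage points. The 3 N-terminal shares lie within each other's counting intervals. With 1 library per treatment, such intervals cannot show whether the share changed. The untreated internal list is the longest of all (27197 peaks), each group has 1 library, and the difference between antibodies was not tested.

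L1Md_A peaks outside chr1 to chr19 enter no comparison above. The untreated testicular list of the internal antibody had 266, with 196 on chrX and 65 on chrY. The spermatocyte list after 43 °C and 4 h of recovery had 72, with 56 on chrX and 13 on chrY. Peaks of any kind on chrX numbered 1105 and 333 in these lists. On chr1 to chr19 the L1Md_A share was 6.68% and 5.79%. The chrX shares were not tested, and chrY peaks of any kind were not counted. The background lists had 3 to 8 L1Md_A peaks outside chr1 to chr19 and the other 14 SPEN lists 2 to 20.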

How the results depend on the processing

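The lower intronic share and the narrower width of L1Md_A peaks kept their direction and side of the threshold under every alternative run for them. The permutation tests below are named by their difference of L1Md_A from the compared peaks. At scores of at least 100 the background-free difference was 4.39 percentage points from other peaks and -2.53 from L1Md_T, neither past the threshold, and the rank difference was -11.5, past it. In the 1000 highest scoring peaks of each list these were 7.52, -3.27 and -12.0, and the difference from L1Md_F and L1Md_Gf was -7.85, past the threshold. Without the 2 longest SPEN lists the difference from L1Md_T was -4.72, short of it, and those from L1Md_F and L1Md_Gf (-5.59) and in rank (-6.87) passed it. The L1Md_F and L1Md_Gf difference also passed at -4.63 when an overlap had to cover 1 in 2 bases of the shorter peak, and the rank difference at -5.35 among intronic and intergenic peaks, an alternative chosen after seeing the data. The number of loci in at least 3 SPEN lists (43) was 1, 7 and 20 at scores of at least 100, in the top 1000 peaks and without the 2 longest lists. The share of testicular minus spermatocyte lists was -0.137 with all chromosomes, and N-terminal minus internal was 0.217 without the 2 longest lists and 0.29 among background-free peaks; these 3 signs reversed. The cause of these changes was not tested.

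Leaving out 1 library or treatment at a time gave 0.211 to 0.769 for SPEN minus background, -4.94 to -3.57 for L1Md_T, -5.55 to -3.78 for L1Md_F and L1Md_Gf, -6.36 to -4.45 for rank and 26 to 42 loci. It gave -2.23 to 0.217 for N-terminal minus internal and -0.479 to 1.87 for testicular minus spermatocyte. Peak scores and widths are limited by an unknown depth.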
